A study of Homo sapiens with 6 samples.

Results

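Serpins, the large family of serine protease inhibitors, were described together with the 2 plasminogen activators and the receptor of one of them. The cells were BT549, given siRNA against basonuclin-2 (BNC2), a zinc finger protein, or a control siRNA. The members were rows of the deposited count table whose symbol is SERPIN, a clade letter from A to I and a number, together with PLAT, PLAU and PLAUR. Of the 23346 genes in the table, 37 such genes are described here, of which 34 were serpins. BT549 is a breast cancer cell line with mesenchymal features, labelled wild type and used here as 1 line. In 1 group, 3 libraries came from cells transfected with BNC2 siRNA, and in the other, the 3 libraries were from cells given a negative control (NC) siRNA. In both, the siRNA was given at 20 nM, the medium was renewed 6 h later and RNA was examined 6 d after transfection. The libraries of a group are biological replicates according to the methods.

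Plasminogen is a circulating zymogen that is cut to plasmin, a protease that dissolves fibrin and degrades extracellular matrix. The tissue activator (encoded by PLAT) does so mainly on fibrin, and the urokinase activator (PLAU) does so mainly at the cell surface, where it is held by its receptor (PLAUR). An inhibitory serpin offers its target protease a bait loop, and once the loop is cut the serpin changes shape and traps the protease covalently, so that each molecule is used once. Some serpins inhibit no protease and serve as hormone carriers or chaperones.

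The libraries held 16093978 to 18246254 counts, and levels are given as CPM, a gene's counts scaled to a common library size, after scaling with TMM, edgeR's correction for library composition. At this depth, 3 counts, up to which a count of 0 remains possible, correspond to 0.168 to 0.191 CPM, which covers counting error only. BNC2 itself stood at 58.6 ± 7.07 CPM with NC siRNA and 37.9 ± 3.25 CPM with BNC2 siRNA (SD, n = 3), a log2 fold change of -0.63 (SE 0.09, adjusted p = 8.2e-06, edgeR's quasi-likelihood test). The knockdown at the level of mRNA was therefore partial in these libraries. The 4 mesenchymal markers examined (VIM, FN1, CDH2 and ZEB1) summed to 4030 to 4116 CPM with NC siRNA and 4846 to 5077 CPM with BNC2 siRNA. None of the 5 epithelial markers passed the filter on low counts, EPCAM and ESRP1 were at 0 in every library, and their sum lay between 0.181 and 0.507 CPM and between 0.814 and 1.35 CPM, respectively. Of the 5 leukocyte markers, 3 passed the filter, and their sum, most of it CD68, lay at 114 to 128 CPM and 141 to 153 CPM. None of the 4 hepatocyte markers passed, with sums of at most 0.903 and 0.640 CPM. Whether these differences in marker sums have a part in the results was not tested.

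Of the 37 genes, 10 were expressed above 1 CPM in at least 3 libraries and could be tested. With BNC2 siRNA, 3 of these rose (SERPINB7, SERPINB6 and PLAU), 6 fell (PLAT, SERPINB2, SERPINA1, SERPINB8, PLAUR and SERPINE2) and SERPINH1 was not called. A call required a Benjamini-Hochberg adjusted p-value of 0.05 or less. The 9 genes called are 90% of those tested, where 72.9% of all 12186 genes tested were called, 36.6% as higher and 36.2% as lower. A call alone therefore says little about these genes, since most expressed genes were called. By size, 7 of the 10 (70%) were called with at least a 2-fold difference, 5 lower and 2 higher, where 18.1% of all genes were. The values of the groups did not overlap for 9 of the 10, beside 74.9% of all genes. The median log2 fold change of the 10 genes was -0.90, beside 0.0014 over all genes tested, and the median size regardless of direction was 1.32, beside 0.44. With reads of both strands counted, 1 more member was tested and the median was -0.53. Of the 5 that were at least 2-fold lower, PLAT, SERPINB2 and SERPINA1 passed the filter through the NC siRNA libraries alone, so that any difference had to be a lower level. The 7 members above 1 CPM in both groups held 2 lower (SERPINB8 and PLAUR) and 2 higher (SERPINB7 and SERPINB6) by at least 2-fold, 3 called in each direction, and a median of -0.02. No common direction of the family is therefore read from these counts and medians. All of these are fold changes of mRNA per library. In a bulk culture, fewer cells that express a gene and less RNA per cell cannot be told apart.

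**Figure D1:**
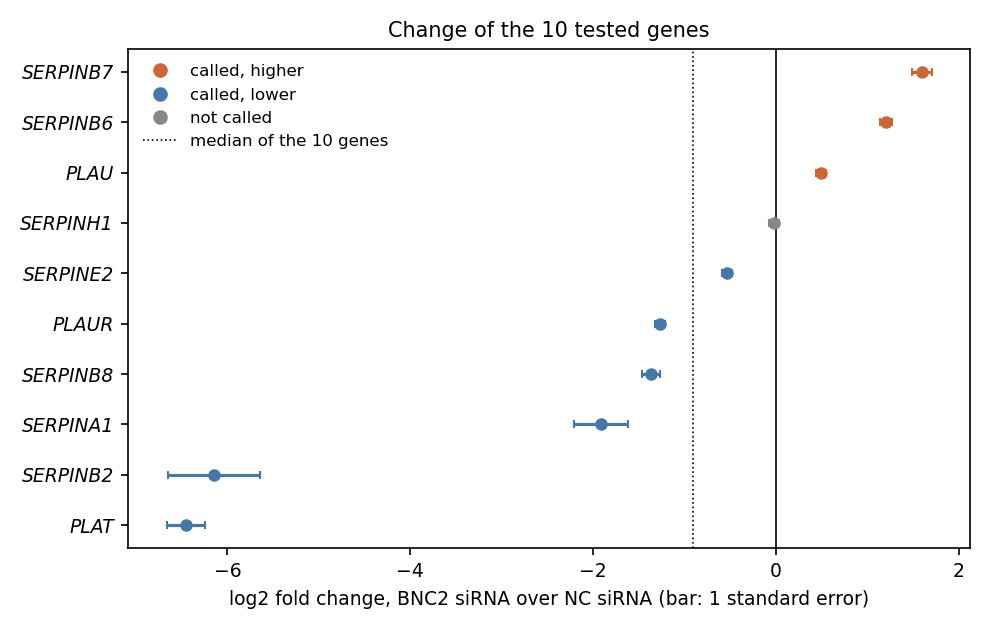
Fold changes of the 10 tested genes. The horizontal axis is the log2 fold change of BNC2 siRNA over NC siRNA with 1 standard error from 3 libraries a group, and the dotted line is the median of the 10 genes at -0.90. Standard errors were derived from the test statistic, and those of PLAT and SERPINB2 understate counting error. PLAT and SERPINB2 lie below -6, and SERPINB7 at 1.59 is the highest.

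The 2 activators moved in opposite directions. PLAT (chr8:42032236-42065227, minus strand, GRCh37), which encodes the tissue activator, had 334, 338 and 356 counts with NC siRNA and 4, 3 and 4 counts with BNC2 siRNA. In CPM these were 18.8, 18.9 and 21.4 against 0.233, 0.169 and 0.255. Every library with BNC2 siRNA was thus close to the level of 3 counts, and PLAT was, with SERPINB2, one of the members that fell furthest. Its log2 fold change was -6.46 (SE 0.21, adjusted p = 1.4e-13), and the ratio of the summed counts was 90.6 (95% exact interval 50.4 to 182, counting error only). This SE was derived from the test statistic and understates counting error, for which the exact interval is to be read. With reads of both strands counted, the log2 fold change was -5.56. PLAU (chr10:75668935-75677254, plus strand), the gene of the urokinase activator, stood at 566, 567 and 563 CPM with NC siRNA and at 829, 784 and 774 CPM with BNC2 siRNA. All 3 libraries with BNC2 siRNA lay above all 3 controls, and PLAU rose 1.41-fold (log2 fold change 0.49, SE 0.05, adjusted p = 3.0e-07). PLAUR (chr19:44150247-44174699, minus strand), which encodes the receptor that holds urokinase at the cell surface, stood at 333, 341 and 336 CPM against 146, 139 and 133 CPM. Here all libraries with BNC2 siRNA were lower, and PLAUR fell 2.42-fold (log2 fold change -1.27, SE 0.06, adjusted p = 5.9e-12). Urokinase mRNA was therefore higher while the mRNA of its receptor was lower in the same libraries.

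Among serpins that are known to inhibit these activators, SERPINB2 and SERPINE2 fell. SERPINB2 (chr18:61538926-61571122, plus strand) encodes a plasminogen activator inhibitor, much of which stays inside the cell. It had 69, 56 and 48 counts with NC siRNA and 0, 2 and 0 counts with BNC2 siRNA, which is 3.89, 3.14 and 2.89 CPM against 0, 0.113 and 0 CPM. The 2 counts in 1 library were the only ones found in the group with BNC2 siRNA, and the ratio of the summed counts was 83.8 with a wide exact 95% interval of 22.9 to 698. Its fitted log2 fold change of -6.15 (SE 0.51, adjusted p = 1.2e-08) depends on that library and was -8.82 without BNC2 siRNA replicate 2, where the group is at 0 and the fitted value is no bound. As for PLAT, the SE understates counting error, and the exact interval is to be read. SERPINE2 (chr2:224839762-224904035, minus strand) encodes a protease nexin, which inhibits thrombin as well as both activators. It stood at 401, 436 and 431 CPM against 302, 292 and 282 CPM and fell 1.45-fold (log2 fold change -0.53, SE 0.06, adjusted p = 2.4e-07), without overlap.

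**Figure D2:**
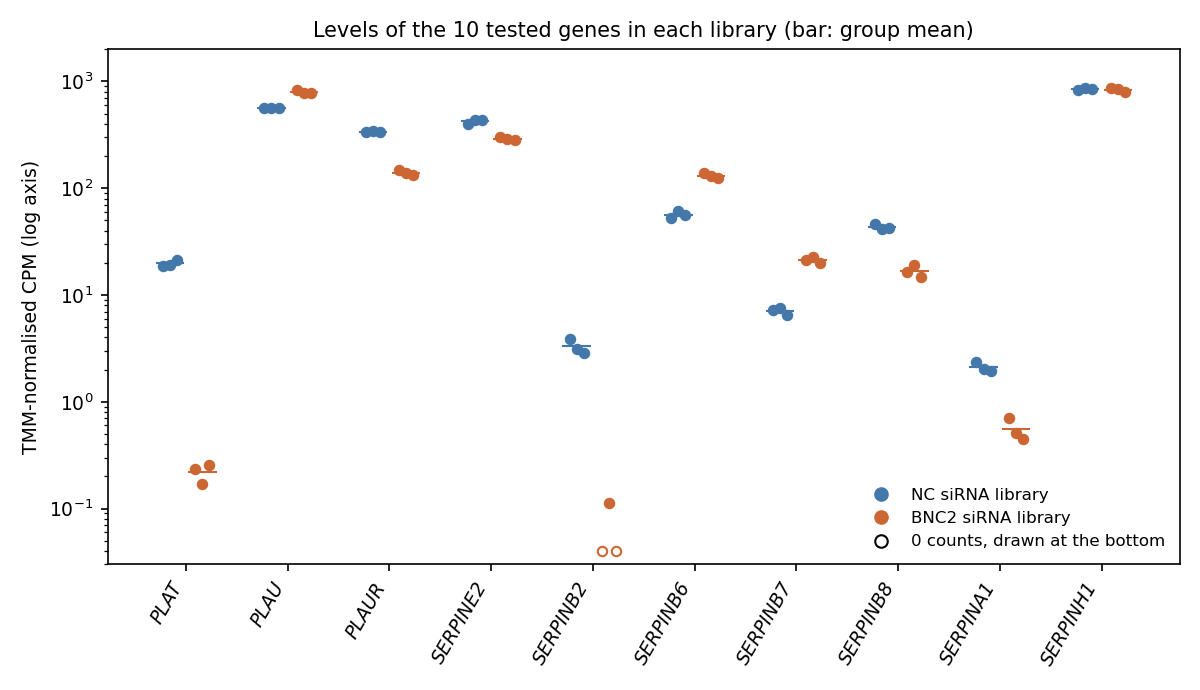
Levels of the 10 tested genes. The vertical axis is the TMM-normalised CPM on a log scale, each point is 1 library, bars are group means and open points are libraries with 0 counts. PLAT falls from 18.8 to 21.4 CPM to at most 0.255 CPM, whereas the points of SERPINH1 overlap.

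Levels of different genes were compared per kilobase of the GENCODE canonical transcript, which need not be the transcript these cells use. With NC siRNA the order was SERPINH1 (413 CPM per kb), PLAUR (246), PLAU (241), SERPINE2 (190), SERPINB6 (43.1), SERPINB8 (13.1), PLAT (6.44), SERPINB7 (3.22), SERPINB2 (1.73) and SERPINA1 (0.700). No neighbours in this order overlapped in their 3 libraries, and the closest in size were PLAUR, at 243.3 to 249.2, and PLAU, at 240.5 to 242.0 CPM per kb. With BNC2 siRNA the order was SERPINH1 (408 CPM per kb), PLAU (340), SERPINE2 (131), PLAUR (102), SERPINB6 (99.3), SERPINB7 (9.73), SERPINB8 (5.06), SERPINA1 (0.183), PLAT (0.0715) and SERPINB2 (0.0197). Here PLAUR overlapped with SERPINB6, and PLAT with SERPINB2. PLAUR thus moved from above PLAU to below SERPINE2, and SERPINB7 moved from below PLAT and SERPINB8 to above both.

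PLAT held a small share of activator mRNA. It made up 2.48% to 2.83% of the summed per-kilobase level of the 2 activators with NC siRNA and 0.0165% to 0.0252% with BNC2 siRNA, so that the sum was nearly all PLAU. That sum was 247.9, 248.2 and 247.5 CPM per kb with NC siRNA and 354, 334.8 and 330.6 CPM per kb with BNC2 siRNA, higher in all 3 libraries. These sums are descriptions of mRNA without a test, and they say nothing of protein, secretion or protease activity.

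The clade B serpins lack a classical signal peptide and mostly act inside cells, and 4 of them were tested, SERPINB2 included. SERPINB6 (chr6:2948393-2972399, minus strand), whose product inhibits cathepsin G among other proteases, stood at 52.7, 60.8 and 56.4 CPM with NC siRNA and at 138, 129 and 125 CPM with BNC2 siRNA. It rose 2.31-fold (log2 fold change 1.21, SE 0.07, adjusted p = 1.1e-10), and the groups lay well apart. SERPINB7 (chr18:61420169-61472610, plus strand), also called megsin and known from kidney mesangium and skin, stood at 7.21, 7.56 and 6.44 CPM against 21.5, 22.5 and 20.1 CPM. It had the largest rise of the 10 genes, 3.02-fold (log2 fold change 1.59, SE 0.11, adjusted p = 9.7e-10). SERPINB8 (chr18:61637263-61687013, plus strand), an inhibitor of the proprotein convertase furin, stood at 46.1, 41.5 and 42.6 CPM against 16.4, 19.2 and 14.8 CPM. Unlike SERPINB7 and SERPINB6 it fell, 2.58-fold (log2 fold change -1.37, SE 0.10, adjusted p = 1.6e-09).

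Most clade B and clade A serpins lie in 3 clusters of the genome that arose by gene duplication, and neighbours within a cluster differed in level and direction. The cluster on chromosome 18 (chr18:61144191-61687013, GRCh37) holds 10 SERPINB genes, of which 3 were tested. SERPINB7, SERPINB2 and SERPINB8 follow each other on the plus strand, with 66316 bp between SERPINB7 and SERPINB2 and 66141 bp between SERPINB2 and SERPINB8, a stretch that also holds SERPINB10 (4 counts in all). Along it, SERPINB7 rose and the other two fell. The remaining genes of this cluster had at most 4 counts in total over the 6 libraries. Among them, SERPINB3 and SERPINB4 are near-identical copies, and since reads that map to several places were not counted, their 2 and 3 counts leave out what they share. The cluster on chromosome 6 (chr6:2832566-2972399) holds 3 genes. There SERPINB6 was expressed in every library, whereas SERPINB1, an inhibitor of neutrophil proteases, and SERPINB9, the inhibitor of granzyme B, had 0 counts in all 6. The cluster on chromosome 14 (chr14:94746797-95113331) holds 10 genes named SERPINA, of which only SERPINA1 was tested. SERPINA13 among them is annotated as SERPINA13P, a long non-coding RNA and no protein-coding gene.

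**Figure D3:**
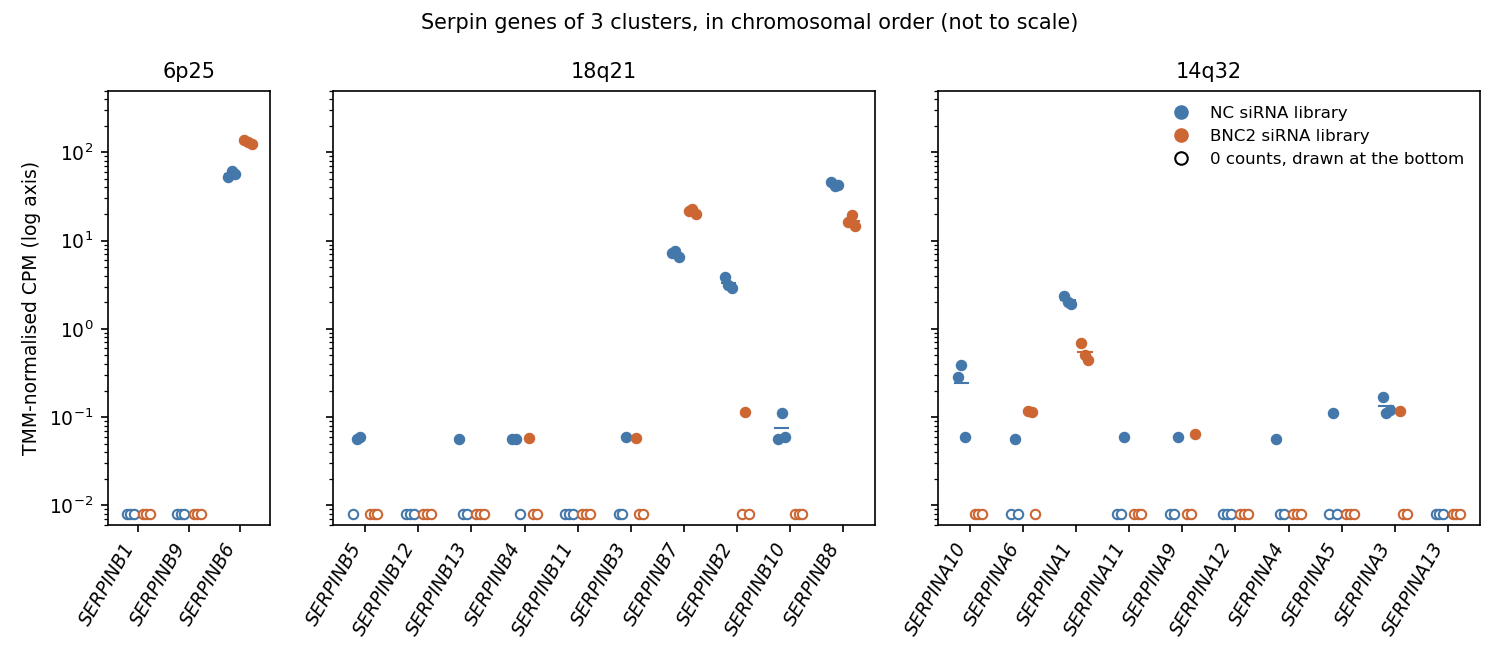
Serpins of 3 genomic clusters in chromosomal order, not to scale. The vertical axis is CPM on a log scale, each point is 1 library and open points are libraries with 0 counts. Of the genes drawn, only SERPINB6, SERPINB7, SERPINB2, SERPINB8 and SERPINA1 lie above 1 CPM in any library.

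Because these neighbours differed in direction, their promoters were read for letters that are bound by general and inducible factors. RefSeq promoters on GRCh38.p14, from 250 bases before to 50 bases after a start, were found for 9 of the 10 tested genes (18 promoters). The gene without one was PLAT, whose promoter was therefore not read. The letters TGACTCA or, on the other strand, TGAGTCA, a known binding sequence of the FOS and JUN family, occurred for 3 of the 9, SERPINB7, SERPINB8 and PLAUR, and in 4.95% of all promoters (6.05% of genes). The letters TATAAA or TTTATA occurred for 4 of the 9, SERPINB2, SERPINB6, SERPINB7 and SERPINB8, and in 11.5% of all promoters (13.99% of genes). In SERPINB8 the matches on both strands share letters. The sequences below are shown to set the neighbouring SERPINB7, SERPINB2 and SERPINB8, which differ in direction, side by side, with PLAUR as the other gene that holds TGAGTCA among the 9 with a promoter read. They are windows of 15 bases either side of the match, written along the strand of the gene, with the match in capitals. Of the 3 SERPINB7 promoters read, the first along the strand, at chr18:63752807-63753106, held neither set of letters. The upstream and downstream starts of SERPINB7 named below belong to the 2 promoters that follow it.
SERPINB7 upstream start, chr18:63775364-63775400, plus strand: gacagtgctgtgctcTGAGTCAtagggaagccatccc
SERPINB7 downstream start, chr18:63777721-63777757, plus strand: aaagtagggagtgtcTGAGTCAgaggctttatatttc
SERPINB8, chr18:63970038-63970074, plus strand: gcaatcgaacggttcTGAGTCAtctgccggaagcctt
PLAUR, chr19:43670334-43670370, minus strand: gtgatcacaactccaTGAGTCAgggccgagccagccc
SERPINB2, chr18:63887660-63887695, plus strand: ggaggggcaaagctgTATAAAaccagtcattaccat
SERPINB7 downstream start, chr18:63777639-63777674, plus strand: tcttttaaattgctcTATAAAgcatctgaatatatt
SERPINB7 downstream start, chr18:63777733-63777768, plus strand: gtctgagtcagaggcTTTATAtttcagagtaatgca
SERPINB8, chr18:63969924-63969959, plus strand: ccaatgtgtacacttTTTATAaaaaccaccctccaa
SERPINB8, chr18:63969926-63969961, plus strand: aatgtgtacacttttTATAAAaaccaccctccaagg
The TGAGTCA match began 39 and 45 bases before the start at 2 of the SERPINB7 starts and 28 bases before the start of SERPINB8, and in PLAUR it lay 186 bases before. SERPINB7 rose while SERPINB8 and PLAUR fell, so the genes that hold these letters did not share a direction. The TATAAA match of SERPINB2 began 30 bases before its start, and those of SERPINB7 began 127 and, on the other strand, 33 bases before. In SERPINB8 they began 140 and, on the other strand, 142 bases before its start, and in SERPINB6 the match began 1 base before a start. A match of letters is not a site shown to be bound in these cells.

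The other 2 tested serpins act outside these groups. SERPINA1 (chr14:94843084-94857030, minus strand) encodes alpha-1-antitrypsin, the plasma inhibitor of neutrophil elastase that is made mainly by the liver. Its counts were 42, 36 and 32 with NC siRNA and 12, 9 and 7 with BNC2 siRNA (2.37, 2.02 and 1.93 against 0.698, 0.508 and 0.446 CPM). It had the lowest level per kilobase of the 10 in the controls and fell 3.77-fold (log2 fold change -1.92, SE 0.29, adjusted p = 1.9e-05), without overlap between the groups. SERPINH1 (chr11:75273101-75283828, plus strand) encodes a chaperone of collagen in the endoplasmic reticulum and inhibits no protease. It had the highest level per kilobase in both groups, at 850 ± 17.6 CPM with NC siRNA and 839 ± 36.3 CPM with BNC2 siRNA (SD, n = 3). The groups overlapped, and the log2 fold change was -0.02 (SE 0.05, adjusted p = 0.777).

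The other 27 members did not pass the filter on low counts. Of these, 8 had 0 counts in all 6 libraries (SERPINA7, SERPINA12, SERPINA13, SERPINB1, SERPINB9, SERPINB11, SERPINB12 and SERPINI2), and 13 had 1 to 9 counts in total. The remaining 6 had at least 10 counts. SERPIND1, which encodes heparin cofactor II, an inhibitor of thrombin, had 17, 20 and 15 counts with NC siRNA and 1, 1 and 2 with BNC2 siRNA. The ratio of its summed counts was 12.6 (95% exact interval 4.64 to 48.0), and it was called as lower where edgeR's own filter was used (log2 fold change -3.53, adjusted p = 1.5e-05, quasi-likelihood test). SERPINA10, an inhibitor of coagulation factor X once activated, had 5, 7 and 1 counts against 0 in each library with BNC2 siRNA. With that group set to 3 counts and the control counts taken as exact, this is 4.2-fold lower, which is no strict bound. SERPINA10 was called only when no filter was applied. SERPINF2, which encodes the main inhibitor of plasmin, had 6, 3 and 9 counts against 2, 1 and 4 counts, a ratio of 2.49 whose interval of 0.993 to 7.06 includes no difference. For SERPINF1, a secreted serpin that inhibits no protease (11, 4 and 17 against 7, 7 and 2 counts), SERPINI1, a neuronal inhibitor of the tissue activator (10, 2 and 13 against 4, 8 and 1), and SERPINC1, antithrombin (5, 1 and 2 against 1, 0 and 1), the counts overlapped. Among these 6 genes, SERPIND1 alone had at least 15 counts in every control library.

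The genes that surround the activators and serpins were read from 4 lists with 61 genes, of which 26 were tested, 9 rose, 13 fell and 4 were not called. These are 34.6% higher and 50.0% lower, beside 36.6% and 36.2% of all genes tested, and without a filter on low counts 12 were called as higher. Among the 23 genes above 1 CPM in both groups, 8 rose and 11 fell. The median log2 fold change was -0.14 over the 26 genes and -0.11 over these 23. Plasminogen itself (PLG) had 1 count in the 6 libraries together. In the list of plasminogen binding and activator clearance, 9 of 11 genes were tested, 6 rose, 1 fell and 2 were not called, and the median change was 0.85 (log2). The share called, 77.8%, was close to the 72.9% of all genes, and 66.7% rose, beside 36.6% of all genes, over only 9 genes. LRP1, the endocytic receptor that takes up complexes of activators with their inhibitors, stood at 44.05, 38.4 and 34.6 CPM against 94.5, 90.0 and 94.0 CPM and rose 2.38-fold (log2 fold change 1.25, SE 0.08, adjusted p = 4.4e-10). MRC2, a collagen receptor that associates with the urokinase receptor, rose from 91.7, 99.98 and 91.0 CPM to 213, 200 and 205 CPM (log2 fold change 1.13, SE 0.06, adjusted p = 5.3e-11). VLDLR, a relative of LRP1 that also clears such complexes, rose from 37.3, 35.6 and 39.6 CPM to 78.9, 79.9 and 82.1 CPM (log2 fold change 1.10, SE 0.07, adjusted p = 2.7e-10). The one gene that fell was S100A10, part of a plasminogen-binding complex with annexin A2 (log2 fold change -0.57), whereas its partner ANXA2 was not called (0.07, adjusted p = 0.352). LRP1 and VLDLR were therefore higher in the libraries in which PLAUR was lower.

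Among 16 other inhibitors of serine proteases, 6 were tested, 1 rose, 4 fell and 1 was not called, and the median was -0.37. The share called was 83.3%, with 16.7% higher and 66.7% lower, beside 72.9%, 36.6% and 36.2% of all genes. PI3 passed the filter through the NC siRNA libraries alone, and the other 5 genes held 1 higher and 3 lower, with a median of -0.18. PI3, which encodes elafin, an inhibitor of elastase, had 333, 355 and 401 counts with NC siRNA and 0, 2 and 0 with BNC2 siRNA, a ratio of 528 (95% exact interval 146 to 4360). TFPI2, an inhibitor of plasmin and other proteases in the matrix, stood at 31.5, 31.8 and 36.4 CPM against 7.21, 6.49 and 6.24 CPM and fell 4.99-fold (log2 fold change -2.32, SE 0.10, adjusted p = 7.4e-12). TFPI, the inhibitor of the tissue factor pathway, was the gene that rose (log2 fold change 0.66, SE 0.08, adjusted p = 7.5e-07). The homologues TFPI and TFPI2 thus moved in opposite directions, as PLAU and PLAT did.

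Of 20 coagulation factors and thrombin receptors, 6 were tested, 2 rose, 3 fell and 1 was not called, and the median was -0.38. The share called was 83.3%, with 33.3% higher and 50.0% lower, over only 6 genes, beside 72.9%, 36.6% and 36.2% of all genes. F3 passed the filter through the BNC2 siRNA libraries alone, and the other 5 genes held 1 higher and 3 lower, with a median of -0.65. PROCR, the receptor of protein C, stood at 5.80, 6.67 and 5.78 CPM against 1.34, 1.13 and 1.78 CPM (log2 fold change -2.11, SE 0.20, adjusted p = 6.4e-08). F3, tissue factor, had 15 counts in each control and 41, 44 and 41 counts with BNC2 siRNA (log2 fold change 1.52, SE 0.24, adjusted p = 3.0e-05). F12, coagulation factor XII, had 77, 113 and 68 counts against 46, 42 and 42 (log2 fold change -0.94, SE 0.20, adjusted p = 5.0e-04). The genes of this list that passed the filter were thus few and mostly low.

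Of 14 other proteases that serpins inhibit, 5 were tested and all 5 fell, beside 36.2% of all genes, with a median of -1.08. This direction holds only for genes past the filter, which CTSS passed through the NC siRNA libraries alone. Below it, ELANE and PRTN3, proteases of neutrophils, had 1 and 0 counts in the control group and 38 and 29 with BNC2 siRNA, and both were called as higher without a filter on low counts (adjusted p = 5.0e-07 and 2.5e-06, edgeR's quasi-likelihood test). CTSS, the cysteine protease cathepsin S, had 72, 88 and 66 counts against 1, 0 and 1 counts, a ratio of 110 (95% exact interval 30.0 to 910). CTSV, cathepsin V, stood at 34.4, 37.5 and 35.9 CPM against 14.4, 16.2 and 15.6 CPM (log2 fold change -1.22, SE 0.09, adjusted p = 1.6e-09), and CTSK, cathepsin K, fell by 1.08 on the log2 scale (SE 0.18, adjusted p = 5.9e-05). FURIN, the target of SERPINB8, fell by 0.41 on the log2 scale (adjusted p = 8.5e-05), so that this protease and its inhibitor were both lower.

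**Figure D4:**
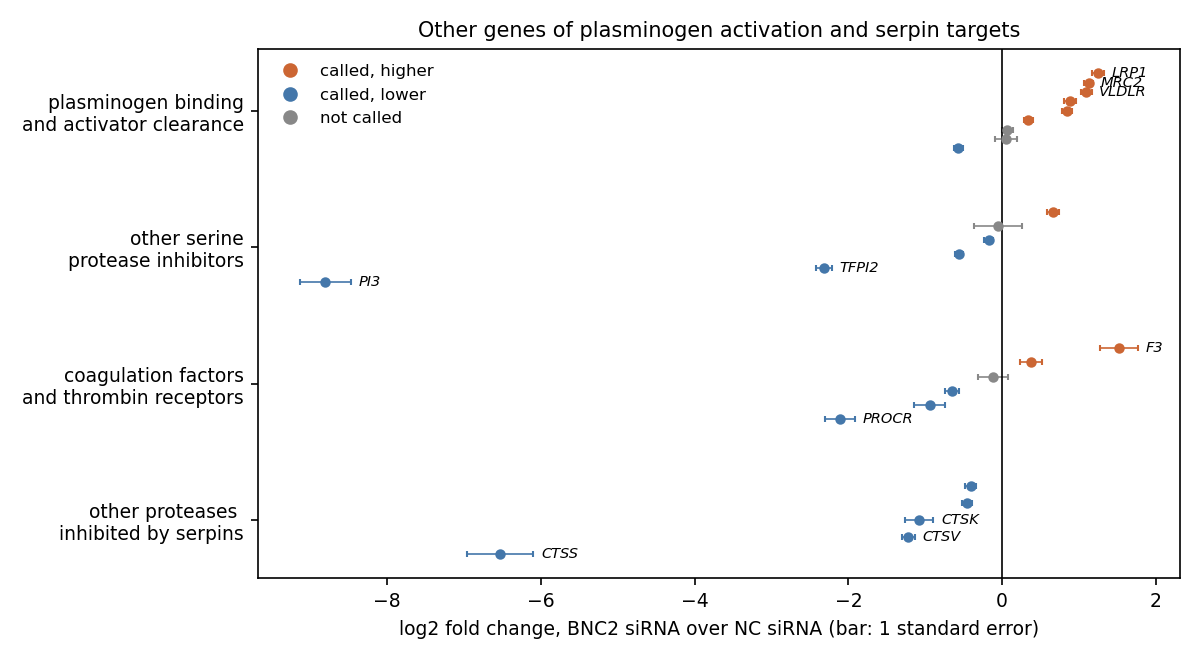
Fold changes of the 26 tested genes of the 4 lists. The horizontal axis is the log2 fold change of BNC2 siRNA over NC siRNA with 1 standard error, and genes of at least 1 in size are named. Standard errors were derived from the test statistic, and those of PI3 and CTSS understate counting error. LRP1, MRC2 and VLDLR lie at 1.10 to 1.25, and PI3 and CTSS, which had at most 2 counts per library with BNC2 siRNA, lie farthest to the left.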

How the data were processed

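The authors isolated poly(A) RNA, sequenced single-end reads and aligned them with STAR 2.6.1d to hg19. They deposited gene counts without normalisation, which equal the reverse-strand column of the library tables in all 23346 genes. Reads assigned to no gene (37.7% to 41.1% of a library) were left out. Reads on several genes are missing from the counts.

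The analysis used R 4.3.3 and edgeR 4.0.16. The 12186 genes that exceeded 1 CPM in 3 or more of the 6 libraries were scaled with TMM and tested with the quasi-likelihood test across all genes, with Benjamini-Hochberg adjusted p-values called at 0.05 or less. A single gene's exact permutation test with 3 libraries a group cannot give a p-value below 0.1. Each SE is the size of the log2 fold change divided by the square root of the test's F statistic. With few counts in a group, such an SE understates counting error. Ratios of summed counts have exact conditional 95% intervals. Totals of 16093978 to 18246254 counts set the precision.

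The result of 1 gene is not reported here, and counts of members leave it out. The members and lists were chosen with earlier results of these data known. Named were all tested members, with values per library for PLAT, PLAU, PLAUR and members of at least 0.5 in size (log2), members under the filter with 10 or more counts, and per list the 3 largest calls without overlap plus calls of at least 1.5. S100A10, ANXA2, PLG, FURIN, ELANE, PRTN3 and leukocyte markers were added after their values had been seen. Groups follow the labels. Alternatives were the likelihood ratio test, DESeq2 1.42.0, its size factors, total counts, no filter, filterByExpr, both strands, a replicate block and leaving out each library. Positions come from GENCODE release 44 on GRCh37, which is the assembly of hg19, and older symbols were matched through RefSeq. Scripts were tested on simulated data.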

Additional observations from a re-analysis of the deposited data

How the results depend on the processing

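The counts of members called in each direction stayed within 1.5 times those above under every alternative, with 7 falling under filterByExpr, where SERPIND1 was called, and 8 without a filter on low counts, where SERPINA10 was called too. In each fit that tested them, the 9 genes called kept their call and direction. The median log2 fold change of the members was -0.98 with scaling by total counts only, -1.26 with filterByExpr, -1.34 without the filter on low counts and -0.53 with counts of both strands, where SERPINF1 was tested too. SERPINH1, not called in any of them, turned to 0.011 without the filter and lay between -0.046 and 0.0079 when single libraries were left out, where it turned only without BNC2 siRNA replicate 3. BNC2 lay between -0.72 and -0.54 without single libraries. Equal replicate numbers did not mark shared material in the labels, and deviations of same-numbered libraries correlated at -0.21, -0.081 and -0.13. With a replicate block, 3 members rose and 6 fell, the median was -0.90, BNC2 was at -0.63, 8 genes of the 4 lists rose and 13 fell, and 8400 genes were called, of which 8391 were also called without the block. Levels under about 0.191 CPM rest on 3 counts or fewer, so the size of the falls of PLAT and SERPINB2 is set by few counts.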

Other observations

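Among the proteases that serpins inhibit, a pair under the filter, chosen after their values had been seen, had counts almost only with BNC2 siRNA. ELANE, neutrophil elastase, the main target of SERPINA1, had 0, 1 and 0 counts with NC siRNA and 17, 11 and 10 with BNC2 siRNA, a ratio of 39.2 (95% exact interval 6.62 to 1590). PRTN3, proteinase 3, a related neutrophil protease, had 0 counts in each control and 13, 11 and 5 with BNC2 siRNA. With the control group set to 3 counts and the counts with BNC2 siRNA taken as exact, this is 9.97-fold higher, which is no strict bound. Both stayed below 1 CPM in every library, while SERPINA1 was lower with BNC2 siRNA. Of the 5 leukocyte markers, ITGAM rose (log2 fold change 1.15, adjusted p = 6.5e-04), CD68 rose (0.29, adjusted p = 4.1e-04) and CD14 fell (-1.42, adjusted p = 5.2e-04) in edgeR's quasi-likelihood test. CD14 passed the filter through the NC siRNA libraries alone, with 0.698, 0.508 and 0.700 CPM with BNC2 siRNA. With NC siRNA, ITGAM stood at 1.07, 0.896 and 0.903 CPM, with a mean of 0.956 CPM, and so lay near the filter level. The direction of CD14 is thus tied to the filter, whereas ITGAM exceeded 1 CPM in libraries of both groups. PTPRC had 3, 2 and 6 counts against 3, 7 and 5, and LYZ had 1, 2 and 3 against 0, 1 and 0. Their part in the counts of ELANE and PRTN3 was not tested.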
